A study of Homo sapiens with 6 samples.

Results

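Potassium channel genes were taken as every gene in the expression table whose symbol starts with KCN, which gave 75 of 16670 genes. The RNA came from A549, an established human line of non-small cell lung cancer. Every culture had first received the Aurora kinase A inhibitor alisertib for 1 week to bring on senescence, a lasting arrest of division, so the controls carry that treatment too. The untreated group (3 libraries) got no second drug, and the salinomycin group (3 libraries) got 2.5 µM salinomycin for 48 h. Cells that had never seen alisertib were not analysed here, and a single line stands for the tumour type.

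Potassium channels let potassium leave or enter the cell along its electrochemical gradient and so set the membrane potential, cell volume and much of epithelial ion transport. Several membrane-spanning subunits together form each pore, and accessory subunits change its gating. Salinomycin is a polyether ionophore that itself carries potassium and other alkali metal ions across membranes.

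Values are normalised units, that is the deposited value less the 1 that appears to have been added to it, divided by a library factor. Totals before that division lay between 16253579 and 16366234 per library, and the reads behind them were estimated at 13539959 to 19641149. All 11 markers of the A549 line were present in every library, at a summed level of 713150 to 747370 units in untreated and 140320 to 151880 in salinomycin libraries. ALDH1A1 was the largest part, with means of 337710 and 46897 units, and EPCAM the smallest, with 46.7 and 19.0. Not all of the 11 followed the sum: KRT19 rose from 1898 to 3164 units, and VIM stood at 14187 ± 1634 and 12975 ± 69.5. Markers of blood (HBB) and endothelium stayed at or below 11.9 units in sum, while PTPRC and CD3E were not analysed here. The 5 neuronal markers summed to 3897 to 4269 units without and 1705 to 1898 units with salinomycin, mostly from SNAP25, SYT1 and RBFOX3. SLC17A6 was at or near 0 and GAD1 went from 2.50 ± 0.642 to 16.8 ± 3.28 units (SD, n = 3 each). The fibroblast sum was 528 to 755 and 409 to 447 units, nearly all COL1A1, and of the alveolar markers AGER was present while SFTPB and SFTPC did not exceed 1.08 units. The part of these markers in the changes of channel genes, many of which neurons also use, was not tested.

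With salinomycin the potassium channel transcripts moved in both directions, more of them down than up. The 2-pore-domain genes KCNK6 and KCNK1 and the voltage-gated gene KCNH2 rose. The inward rectifiers KCNJ16, KCNJ6, KCNJ15, KCNJ11, KCNJ2 and KCNJ8, the calcium-activated channels KCNN4 and KCNN1, and the accessory genes KCNE3 and KCNE4 fell. Of the 75 genes, 39 reached a deposited value of 11 in no fewer than 3 libraries and were tested with limma, with p-values adjusted by Benjamini-Hochberg over all 13088 genes that met this minimum. At an adjusted p under 0.05, 11 of the 39 rose (28.2%, against 41.6% of all tested genes), 24 fell (61.5%, against 40.2%) and 4 did not pass. In either direction 35 passed, or 89.7% against 81.9% of all tested genes, so the count of calls as such lay near the background. Changes of at least 2-fold that passed numbered 6 up (15.4%, against 16.8%) and 18 down (46.2%, against 18.5%). The median log2 change was -0.85 for the 39 and 0.02 for all tested genes.

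The 3 values of one group lay wholly above or below those of the other in 34 of the 39 (87.2%, against 83.0% of all tested genes). Of the 39, 5 met the minimum through 1 group alone, KCNE3, KCNN1, KCNJ15 and KCNJ11 through the untreated libraries and KCNN2 through the salinomycin libraries, and could hardly have failed to differ. Leaving those 5 out gave 10 higher (29.4%), 20 lower (58.8%) and 4 without a call, at a median of -0.64. Changes of at least 2-fold that passed were then 5 up (14.7%) and 14 down (41.2%). The shares of all tested genes were not cut in the same way. They hold 297 genes that met the minimum through the salinomycin libraries alone and 311 through the untreated libraries alone. KCNH3, KCNQ5 and KCNIP3 stayed in, though only 1 salinomycin library of each reached the minimum. The untreated libraries alone would have let them be tested, so their falls carry a like limit. In bulk RNA, a change in the RNA per cell and a change in which cells were present cannot be told apart. Each change is relative to the rest of the library. With scaling by library size alone the median of all tested genes moved from 0.02 to 0.21, that of the 39 from -0.85 to -0.66, and the counts became 12 up and 21 down. The labels call the libraries biological replicates but do not say that they came from separate cultures, and p-values measure the spread between them.

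**Figure D1:**
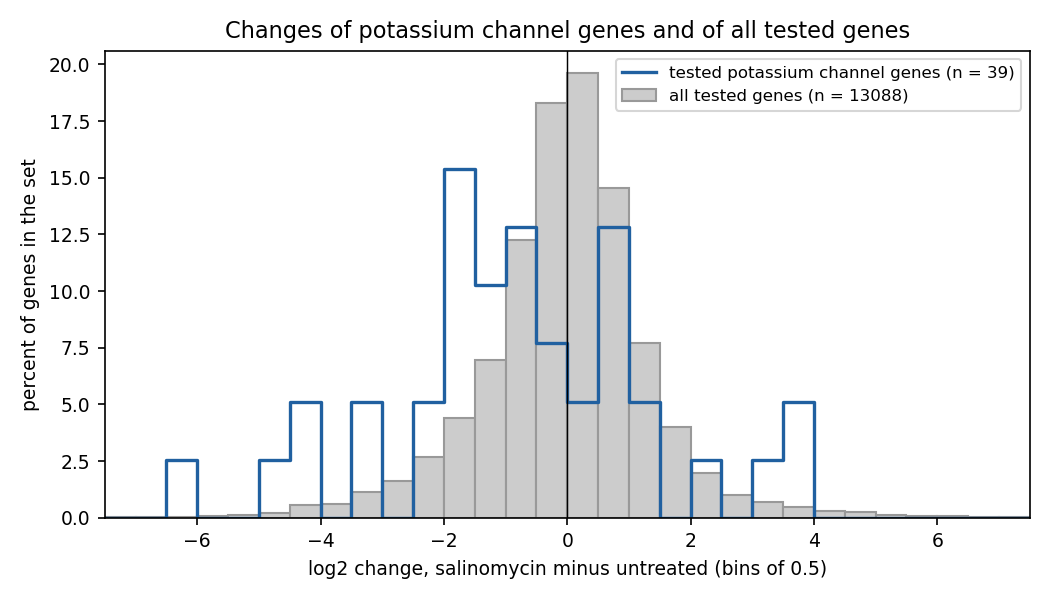
The horizontal axis is the log2 change from untreated to salinomycin in bins of 0.5 and the vertical axis the percent of each set in the bin. Grey bars are all 13088 tested genes, with a median of 0.02, and the blue line is the 39 tested potassium channel genes, which have a median of -0.85 and more of their number at changes below -1.

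**Figure D2:**
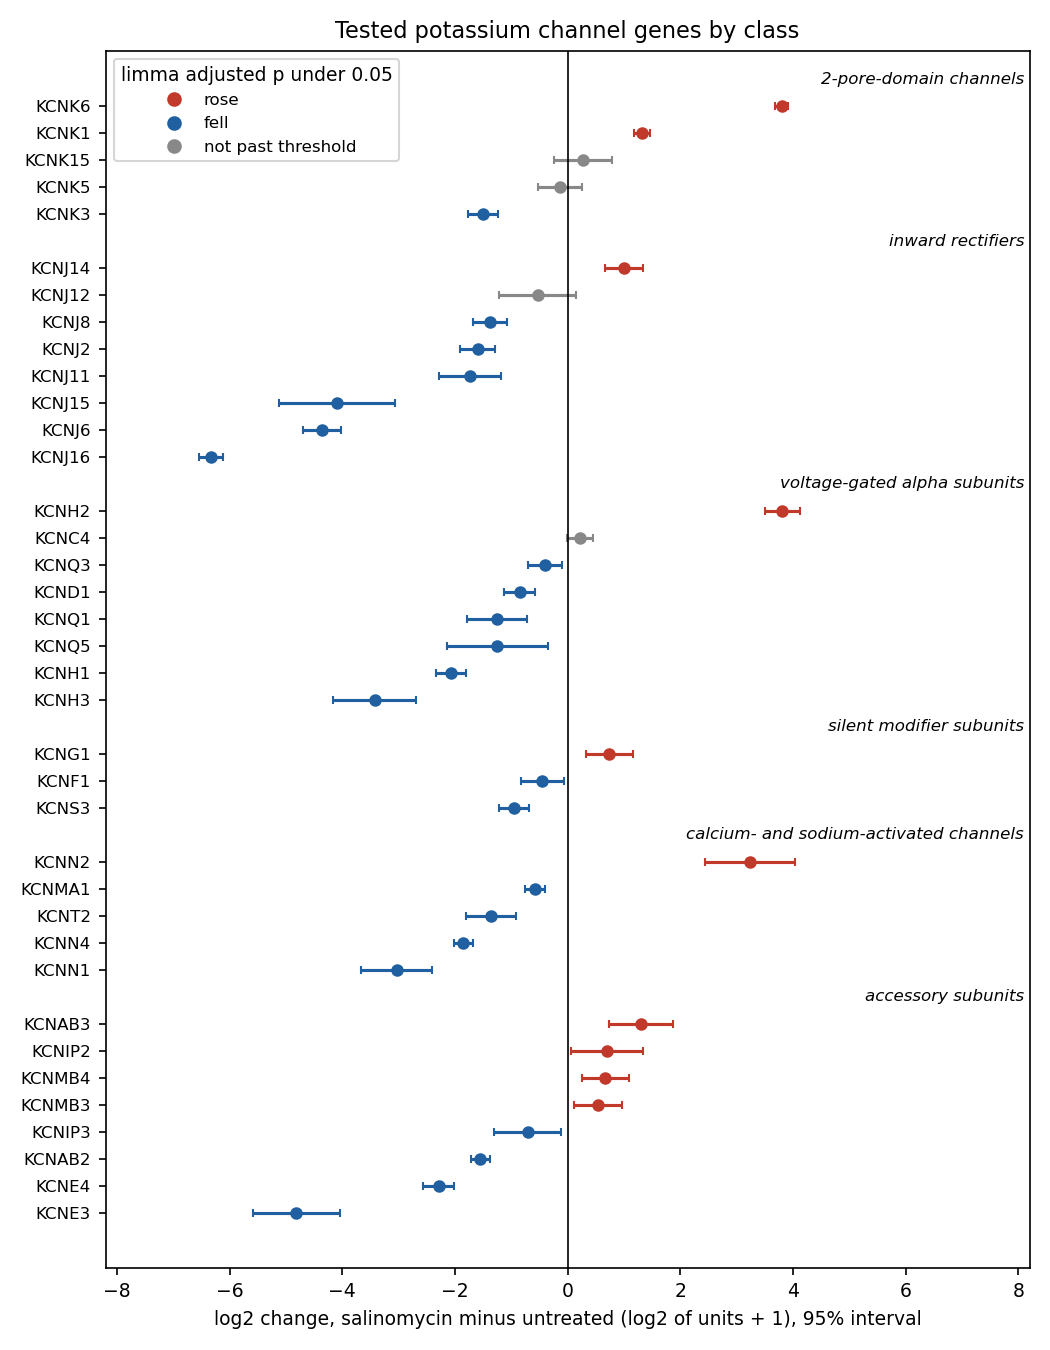
Each point is the log2 change of 1 potassium channel gene, for 37 of the 39 tested, with its 95% interval from limma (n = 3 libraries per group), ordered within classes. Inward rectifiers lie mostly left of 0, from KCNJ16 at -6.33 to KCNJ14 at 1.00, and the 2-pore-domain genes run from KCNK3 to KCNK6 at 3.80.

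The letters before the start sites of 4 genes are shown because these had the 2 highest levels per length of exon with salinomycin (KCNK6 and KCNK1) and the 2 highest without it (KCNN4 and KCNJ16). RefSeq (GRCh38.p14) gave 86 start sites for 55 of the 75 genes, and the 250 bases before each were searched on both strands for 8 motifs of stress and signalling factors. Capitals mark the matches. KCNK6 has one start, at chr19:38319595-38319844 (plus strand), and KCNK1 one, at chr1:233613856-233614105 (plus strand). KCNJ16 has 3, of which the one at chr17:70074975-70075224 (plus strand) is printed, and KCNN4 has one, at chr19:43780974-43781223 (minus strand).
KCNK6: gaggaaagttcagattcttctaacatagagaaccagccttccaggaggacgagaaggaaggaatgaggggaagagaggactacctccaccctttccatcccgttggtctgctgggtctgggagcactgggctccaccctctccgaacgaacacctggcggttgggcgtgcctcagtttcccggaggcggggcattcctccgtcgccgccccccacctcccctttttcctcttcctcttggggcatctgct
KCNK1: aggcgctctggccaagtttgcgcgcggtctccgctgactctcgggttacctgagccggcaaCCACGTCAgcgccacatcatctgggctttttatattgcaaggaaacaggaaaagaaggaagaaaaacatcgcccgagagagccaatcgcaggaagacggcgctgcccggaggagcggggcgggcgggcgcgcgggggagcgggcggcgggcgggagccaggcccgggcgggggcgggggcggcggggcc
KCNJ16: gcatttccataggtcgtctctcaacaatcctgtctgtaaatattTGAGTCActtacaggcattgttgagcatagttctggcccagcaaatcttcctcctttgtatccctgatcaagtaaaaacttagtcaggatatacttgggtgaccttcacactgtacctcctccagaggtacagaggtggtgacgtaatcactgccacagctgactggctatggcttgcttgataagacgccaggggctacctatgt
KCNN4: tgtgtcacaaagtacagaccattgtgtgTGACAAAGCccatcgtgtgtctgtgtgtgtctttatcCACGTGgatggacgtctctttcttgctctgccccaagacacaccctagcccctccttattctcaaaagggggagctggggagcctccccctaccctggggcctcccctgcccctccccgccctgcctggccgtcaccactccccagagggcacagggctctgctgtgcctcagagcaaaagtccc
In KCNK1 the capitals are CCACGTCA, the reverse complement of TGACGTGG, the core of the unfolded protein response element, which 0.612% of all 35116 windows hold and no other KCN window does. In KCNJ16 they are TGAGTCA, a match to the AP-1 motif TGANTCA (6.57% of all windows, 9.30% of KCN windows), and the other windows of this gene hold none of the 8. KCNN4 holds TGACAAAGC, a match to the antioxidant response element core TGACNNNGC (10.9% of all windows), and the E-box CACGTG (6.34%). The KCNK6 window holds none of these, nor the C/EBP-ATF element TGATGNAAN (3.13%), the ER stress element (0.0740%), the cAMP response element TGACGTCA (1.65%) or the TCF/LEF motif CTTTGAT (2.26%). A match is a run of letters, not a bound site, and A549 cells may use other start sites.

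Leak channels with 2 pore domains per subunit hold the resting potential of many cells, and 5 of the 12 in the table were tested. KCNK6 (chr19:38319844-38332076) encodes a channel of the TWIK subfamily that is found at the plasma membrane and in endolysosomes. Its untreated libraries stood at 429, 451 and 418 units and its salinomycin libraries at 5804, 6128 and 6197 units. Every salinomycin value thus lay far above every untreated one, a 13.9-fold rise (log2 change 3.80, SE 0.0531; limma adjusted p = 2.56e-13). By size of change it was the 146th of all tested rises. KCNK1 (chr1:233614004-233672512), the founding member of the same subfamily, went from 383, 365 and 389 units to 932, 939 and 970 units, a 2.495-fold rise with no overlap (adjusted p = 1.43e-09). KCNK7, the other TWIK gene, had 1 estimated read in all untreated and 2 in all salinomycin libraries.

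Of the pH-sensitive TASK genes only KCNK3 passed, as lower. KCNK3, which encodes an acid-inhibited leak channel, stood at 308, 284 and 304 units without and 91.7, 127 and 99.5 units with salinomycin. It fell 2.83-fold, without overlap (adjusted p = 2.46e-07). KCNK5, an alkali-activated channel gene that takes part in volume regulation, overlapped between groups at 106 ± 21.0 and 96.2 ± 17.0 units (SD, n = 3 each; log2 change -0.14, 95% interval -0.53 to 0.25; limma adjusted p = 0.478). KCNK15 did not pass either, at 23.6 ± 3.92 and 28.98 ± 7.45 units (log2 change 0.27, 95% interval -0.25 to 0.79; limma adjusted p = 0.302). In total 2 of the 5 tested genes of this class rose, 1 fell and 2 did not pass. The 40% higher and 20% lower stand against 41.6% and 40.2% of all tested genes.

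Inward rectifiers pass potassium more readily into the cell than out of it and hold the membrane near the potassium equilibrium potential. Among 14 such genes 8 were tested. Of these 6 fell, 1 rose and 1 did not pass, and their median log2 change was -1.66. The shares were 75% lower and 12.5% higher, against 40.2% and 41.6% of all tested genes. Among the 6 that fell, KCNJ15 and KCNJ11 met the minimum through the untreated libraries alone. The shares and the median include them. KCNJ16 (chr17:70053429-70135608) encodes a subunit that is silent alone and forms pH-sensitive channels with KCNJ10 or KCNJ15. It was at 1383, 1285 and 1337 units in untreated and at 15.7, 15.0 and 16.0 units in salinomycin libraries. The 3 values of each group were close together and the groups were 80.6-fold apart (log2 change -6.33, SE 0.0983; limma adjusted p = 3.75e-13), the 7th largest fall of all tested genes.

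Both partners of KCNJ16 were scarce. KCNJ15 had 22.7, 21.3 and 25.6 units without salinomycin and 1.85, 0 and 0 units with it. Its 60 and 2 estimated reads gave an untreated level 39.5 times the salinomycin level (95% counting interval 10.5 to 334). The fit itself gave a 17.0-fold fall (limma adjusted p = 5.32e-06). KCNJ15 also met the minimum through the untreated libraries alone and could hardly have failed to differ. The fitted fold of this gene ran from 3.63 with a pseudocount of 8 to 31.3 with limma-voom. KCNJ10 was below the minimum, with 22 and 8 estimated reads and no overlap between the groups.

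G protein-gated rectifiers, which open on signals from G protein-coupled receptors, are assembled from KCNJ3, KCNJ5, KCNJ6 and KCNJ9. KCNJ6 was the one with reads enough to test. Its untreated libraries varied, at 348, 430 and 498 units, and its salinomycin libraries lay at 22.2, 18.8 and 17.8 units, a 20.6-fold fall (adjusted p = 1.47e-10). KCNJ3 had 9 estimated reads in the untreated group and 0 in the salinomycin group, at least 4.10-fold lower when the group total of 0 is set to 3 reads. KCNJ9 moved the other way, from 0 to 27 reads, at least 6.75-fold higher by the same limit. KCNJ5 had 7 and 4 reads.

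The pore subunits of ATP-sensitive channels, which couple potassium current to the energy state of the cell, both fell. KCNJ8 was at 119, 112 and 138 units without and 48.1, 47.8 and 43.2 units with salinomycin, a 2.61-fold fall (adjusted p = 1.51e-06). KCNJ11 went from 25.9, 24.5 and 30.9 to 7.41, 8.44 and 6.57 units, a 3.32-fold fall (adjusted p = 4.41e-05). KCNJ11 met the minimum through the untreated libraries alone and could hardly have failed to differ. ABCC8, which encodes the sulfonylurea receptor that surrounds the pore, fell 2.35-fold, from 76.0 ± 10.8 to 33.2 ± 13.3 units. The other receptor gene, ABCC9, was below the minimum.

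KCNJ2, the classical strong rectifier of muscle and other tissues, had 159, 159 and 130 units without salinomycin and 46.3, 54.4 and 45.1 units with it, a 3.03-fold fall with no overlap (adjusted p = 4.50e-07). KCNJ14 was the only tested inward rectifier that rose, from 97.3, 131 and 104 to 249, 241 and 176 units (1.99-fold; adjusted p = 6.92e-05). The salinomycin replicate 3 was its lowest treated value and still above every untreated one. On the same strand 8.07% of the exon bases of KCNJ14 are shared with its neighbour GRWD1, and on the opposite strand 16.5% with an antisense gene. KCNJ12, which has a near-identical copy in the genome, did not pass, at 18.2 ± 7.61 and 11.8 ± 2.28 units (SD, n = 3 each; log2 change -0.53, 95% interval -1.22 to 0.16; limma adjusted p = 0.135).

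Some of these genes lie side by side in the genome. KCNJ16 and KCNJ2 are 33.1 kb apart on chromosome 17, and KCNJ6 and KCNJ15 are 34.2 kb apart on chromosome 21. All 4 fell. These were the only pairs of KCN genes within 500 kb of each other with both members tested. KCNJ10 and KCNJ9, 11.1 kb apart on chromosome 1 (chr1:159998651-160070483 and chr1:160081570-160090563), were both untested, the first lower and the second higher with salinomycin.

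**Figure D3:**
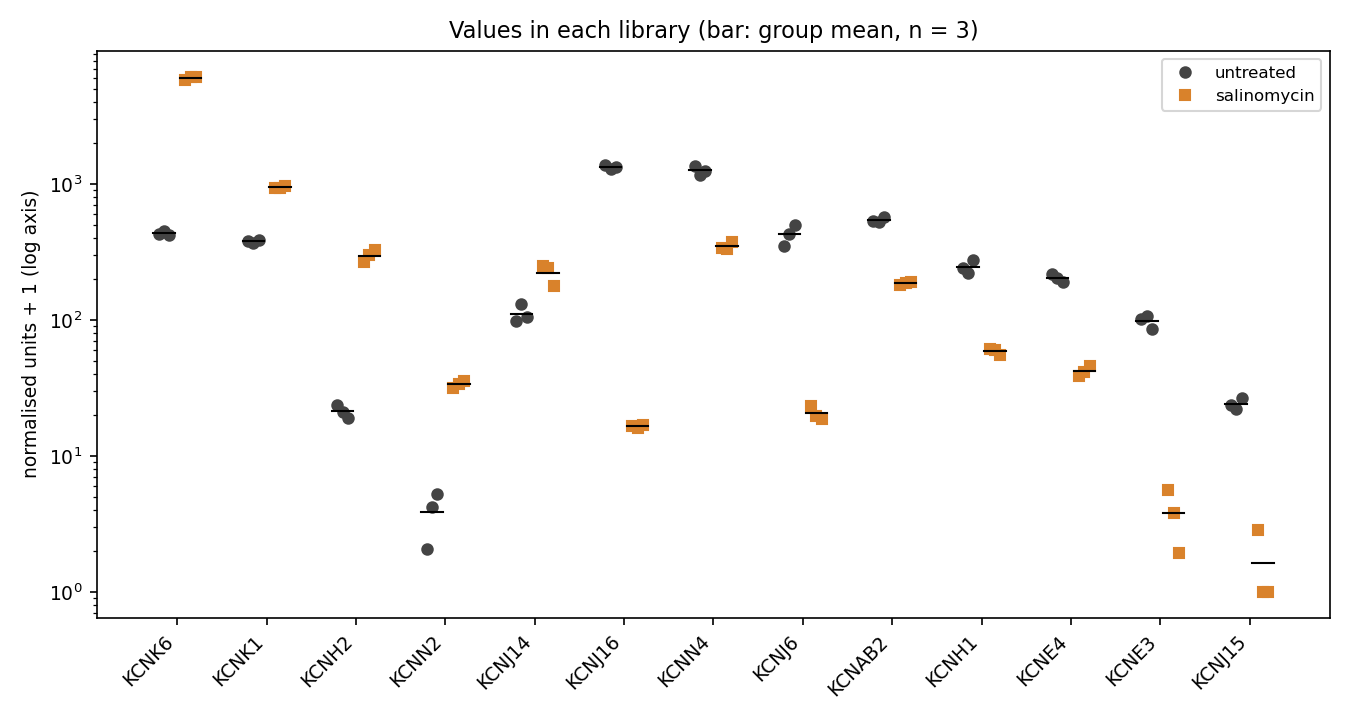
Each symbol is 1 library (circles untreated, squares salinomycin) and each bar a group mean (n = 3), on a log axis of normalised units plus 1. KCNK6 to KCNJ14 are higher with salinomycin and KCNJ16 to KCNJ15 lower, with no overlap between groups in any of the 13 genes. The 13 are a selection from the 39 tested that holds none of the overlapping genes, and 83.0% of all tested genes did not overlap. KCNN2, KCNE3 and KCNJ15 met the minimum through 1 group alone.

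Voltage-gated channels open on depolarisation and shape electrical firing, and in non-excitable cells they take part in volume control and the cell cycle. Of 21 pore-forming (alpha) genes 10 were tested, with 2 higher, 7 lower and 1 not past the threshold. That is 20% higher and 70% lower, against 41.6% and 40.2% of all tested genes. The ether-à-go-go family split. KCNH2 (chr7:150944961-150978315), which encodes the hERG channel of cardiac repolarisation, was at 22.7, 20.2 and 18.1 units without and at 267, 301 and 325 units with salinomycin. This 14.0-fold rise (log2 change 3.81, SE 0.142; limma adjusted p = 2.17e-10) set the groups wholly apart.

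KCNH1, whose channel is expressed in brain and in many tumours, went from 242, 222 and 275 to 60.2, 59.1 and 54.4 units, a 4.19-fold fall (adjusted p = 9.75e-09). KCNH3, a channel gene found mainly in forebrain, went from 70.3, 56.4 and 77.9 to 2.78, 9.38 and 5.63 units. Its fall was 10.7-fold (adjusted p = 1.30e-06), or 5.54-fold with a pseudocount of 8. KCNH3 met the minimum in 3 untreated libraries but only 1 salinomycin library. Exon bases shared with a gene on the opposite strand made up 36.9% in KCNH1, and the counting is not stated to have used strand. On the same strand 16.1% were shared with AL590132.1 and 3.94% with AC092017.3.

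KCNC4, a gene of fast-inactivating current, had 226, 246 and 291 units without and 298, 315 and 271 with salinomycin, so that the groups overlapped. It did not pass (log2 change 0.22, 95% interval -0.01 to 0.45; limma adjusted p = 0.0755), but rose with scaling by library size alone (log2 change 0.41, adjusted p = 0.0040), with limma-voom (0.23, adjusted p = 0.0439) and without untreated replicate 3 (0.32, adjusted p = 0.0138).

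The tested genes KCNQ1, KCNQ3, KCNQ5 and KCND1 were also lower, and so was AMIGO1. AMIGO1, a membrane protein that joins voltage-gated channels, fell 6.41-fold, from 112 ± 12.8 to 17.1 ± 5.02 units. KCNQ1, which carries the slow repolarising current of the heart and basolateral current in epithelia, went from 35.7, 25.5 and 25.6 to 11.1, 13.1 and 10.3 units, a 2.37-fold fall (adjusted p = 0.000474).

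KCNQ5, a gene of the neuronal M-current, had 10.8, 16.0 and 24.5 units without and 11.1, 3.75 and 5.63 units with salinomycin. The groups overlapped, and its 2.38-fold fall passed (adjusted p = 0.0136) but not without untreated replicate 3 (adjusted p = 0.0713) or salinomycin replicate 2 (adjusted p = 0.0542). KCNQ3, its relative, fell from 121 ± 9.86 to 91.8 ± 13.2 units (log2 change -0.40), and its call was lost without untreated replicate 3 (adjusted p = 0.0666) or salinomycin replicate 3 (adjusted p = 0.0726) and with scaling by library size alone (adjusted p = 0.174). KCND1, a gene of transient A-type current, fell from 152 ± 14.2 to 84.0 ± 9.22 units (log2 change -0.85).

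Silent subunits form no channel alone and change the gating of voltage-gated partners. Of the 3 tested, 1 rose and 2 fell (33.3% and 66.7%, against 41.6% and 40.2% of all tested genes). KCNS3 fell from 144 ± 7.25 to 73.8 ± 6.83 units (log2 change -0.96) and KCNG1 rose from 56.1 ± 10.7 to 94.4 ± 19.2 units (0.74). KCNF1 fell from 55.7 ± 9.79 to 40.2 ± 2.62 units (-0.45; limma adjusted p = 0.0337). That last call was lost without any one of untreated replicates 1 and 2 and salinomycin replicates 1 and 2, with adjusted p between 0.0766 and 0.126, with library size scaling (adjusted p = 0.185), without a filter (0.0535) and with a replicate block (0.0559).

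Of 5 tested genes of channels opened by intracellular calcium or sodium, 4 fell and 1 rose (80% and 20%, against 40.2% and 41.6% of all tested genes). KCNN1 among the lower ones and KCNN2, the higher one, met the minimum through 1 group alone. KCNN4 (chr19:43766533-43781261) encodes the intermediate-conductance channel that supports chloride secretion, volume regulation and migration of epithelial and blood cells. Its libraries stood at 1355, 1169 and 1256 units without salinomycin and at 339, 333 and 375 units with it. The fall was 3.60-fold, with no overlap (log2 change -1.85, SE 0.0740; limma adjusted p = 3.97e-10).

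The small-conductance genes went opposite ways. KCNN1 had 54.1, 46.8 and 51.2 units without and 3.70, 8.44 and 4.69 units with salinomycin, an 8.16-fold fall (adjusted p = 9.65e-07; 4.35-fold with a pseudocount of 8). KCNN2 had 1.08, 3.19 and 4.27 units without and 30.6, 32.8 and 34.7 units with it, from 7 to 114 estimated reads. Its rise was 9.40-fold (adjusted p = 4.71e-06), or 3.78-fold with a pseudocount of 8. KCNN3, the other member, was untested, with 23 and 27 reads and overlapping groups.

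KCNMA1, which encodes the large-conductance BK channel, had 342, 331 and 343 units without and 229, 236 and 212 units with salinomycin, a 1.498-fold fall without overlap (adjusted p = 2.83e-05). Its accessory genes KCNMB3 and KCNMB4 were higher, at 33.2 ± 4.32 and 48.8 ± 9.83 units and at 29.3 ± 3.70 and 47.3 ± 8.01 units (log2 change 0.53 and 0.67). The call of KCNMB3 was lost without untreated replicate 2 (adjusted p = 0.0728) or salinomycin replicate 1 (adjusted p = 0.116), and 37.9% of its exon bases lie opposite PIK3CA. KCNT2, a sodium-activated channel gene, fell from 65.9, 61.7 and 56.6 to 29.6, 22.5 and 18.8 units, or 2.57-fold (adjusted p = 4.64e-05).

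Of 8 tested accessory genes 4 were higher and 4 lower (50% each, not far from the 41.6% and 40.2% of all tested genes). KCNE3, whose product holds KCNQ1 open in airway and intestinal epithelium, had 102, 105 and 84.3 units without and 4.63, 2.81 and 0.939 units with salinomycin. This was a 28.2-fold fall (log2 change -4.82, SE 0.352; limma adjusted p = 8.36e-08), or 9.79-fold with a pseudocount of 8, and from 257 to 10 estimated reads. KCNE3 met the minimum through the untreated libraries alone and could hardly have failed to differ. An antisense gene on the opposite strand shares 16.6% of the exon bases of KCNE3. KCNE4, an inhibitory subunit of the same family, went from 218, 203 and 191 to 37.96, 40.3 and 45.1 units, a 4.88-fold fall (adjusted p = 6.77e-09).

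Cytoplasmic beta subunits, which resemble aldo-keto reductases, moved apart. KCNAB2 fell from 536, 529 and 573 to 180, 187 and 191 units, 2.93-fold lower (adjusted p = 2.34e-09). KCNAB3 rose from 14.1, 11.7 and 11.7 to 43.5, 32.8 and 23.5 units, 2.47-fold higher (adjusted p = 0.000570), with widely spread salinomycin values that all lay above the untreated ones. Among genes of calcium-binding interacting proteins, KCNIP2 went from 18.9 ± 7.01 to 29.9 ± 3.83 units (log2 change 0.70; limma adjusted p = 0.0408) and KCNIP3 from 14.3 ± 0.741 to 8.41 ± 0.946 units (-0.70; limma adjusted p = 0.0305). The KCNIP2 call was lost without untreated replicate 1 (adjusted p = 0.163) or any one salinomycin library (adjusted p = 0.0608 to 0.127). The KCNIP3 call was lost without untreated replicate 1 or 2, or salinomycin replicate 1 or 2 (adjusted p = 0.0533 to 0.0751). Both were also lost with a replicate block (adjusted p = 0.0535 and 0.0613), KCNIP2 with upper-quartile scaling (0.0638) or without a filter (0.0635), and KCNIP3 with library size scaling (0.0897).

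Levels can be set against each other between genes per kilobase of merged exon (GENCODE release 29). On that scale KCNN4 led the untreated libraries at 370 ± 27.2 units per kb, followed by KCNJ16 at 211 ± 7.69, KCNK1 at 104.5 ± 3.50 and KCNK6 at 70.2 ± 2.71 (SD, n = 3). These 4 levels were spaced by more than their spread. After KCNAB2 at 57.3 ± 2.48, KCNE4, KCNJ8, KCNK3 and KCNS3, between 45.9 and 49.5 units per kb, did not differ beyond their spread. With salinomycin KCNK6 led at 980 ± 34.0 units per kb, then KCNK1 at 261 ± 5.48 and KCNN4 at 102 ± 6.62. KCNJ14 and KCNH2 followed at 51.2 ± 9.16 and 50.6 ± 4.98 and did not differ beyond their spread.

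Summed over all 75 genes, the level per length was 1409, 1327 and 1363 units per kb in untreated and 1716, 1768 and 1793 in salinomycin libraries. The 2-pore-domain class held 19.1% ± 0.499 of that sum without and 73.7% ± 0.717 with salinomycin, and KCNK6 alone 5.14% ± 0.320 and 55.7% ± 0.737. Inward rectifiers went from 25.7% ± 0.607 to 5.12% ± 0.723, and calcium- and sodium-activated channels from 29.4% ± 1.21 to 6.77% ± 0.232. Without KCNK6 the sum was 1296 ± 42.8 units per kb untreated and 779 ± 8.17 with salinomycin. The larger sum with salinomycin thus came from 1 gene. These sums describe transcripts, not channels in the membrane.

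**Figure D4:**
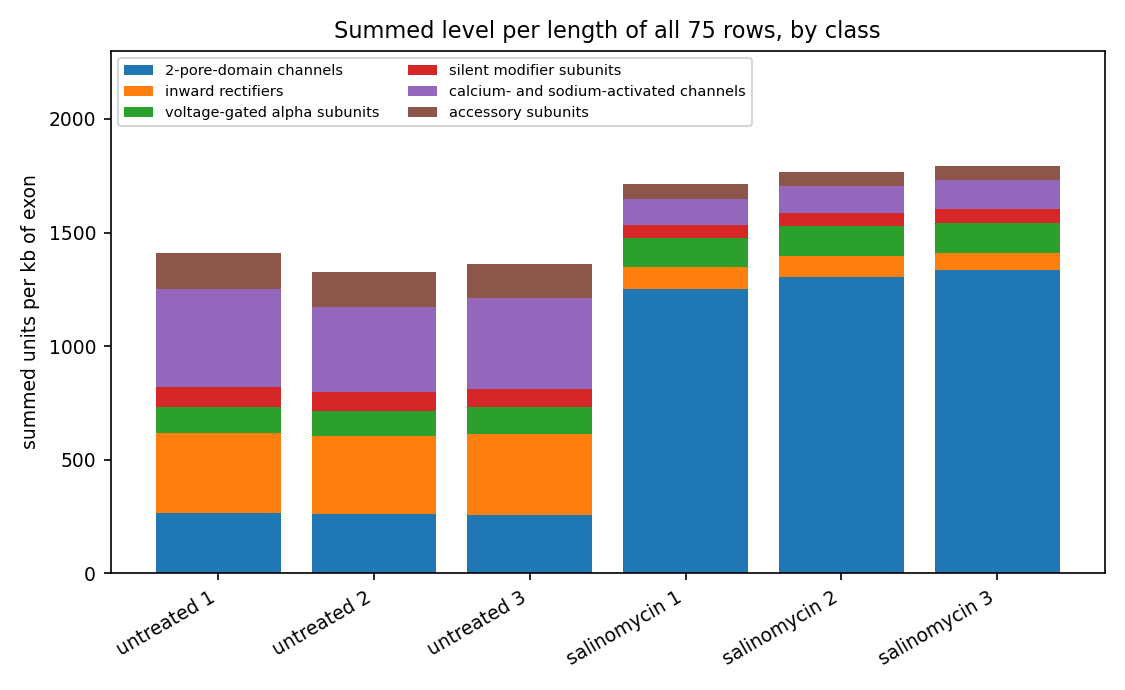
Bars are the 6 libraries and the vertical axis is the summed level per kilobase of exon of all 75 potassium channel genes, split by class. The 2-pore-domain part grows from 261 ± 5.74 to 1296.5 ± 41.6 units per kb with salinomycin (SD, n = 3), while the inward rectifier part shrinks from 351 ± 6.55 to 89.8 ± 11.05.

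The 36 untested genes comprised 11 voltage-gated, 7 2-pore-domain, 6 inward rectifier, 5 accessory, 4 silent and 3 calcium- or sodium-activated genes, and none had a deposited value above 18. Just inside the minimum lay KCNIP3, at deposited values of 15, 14 and 14 without and 10, 9 and 11 with salinomycin. Just outside lay KCNV1, at 14, 10 and 18 and at 8, 9 and 3. In 11 of the 36 the groups did not overlap (30.6%, near the 25.4% of all 3582 untested genes). KCNA2, KCNC1, KCNG3, KCNJ3, KCNJ10, KCNU1 and KCNV1 were among the lower ones with salinomycin, and KCNJ9 and KCNK10 among the higher ones.

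Of the 75 genes, 58 had in the authors' deposited table an adjusted p, under 0.05 for 14 higher and 20 lower genes. Of the 39 genes tested here 34 had the same call in the authors' deposited table, and 0 had the opposite one. KCNC4 passed there as higher (authors' deposited table, adjusted p = 0.00252), while KCNF1, KCNIP3, KCNQ3 and KCNQ5 did not pass. KCNJ9, untested here, was called higher in the authors' deposited table (adjusted p = 0.00374). Of 15 gene sets of Gene Ontology and Reactome with potassium in their name in the authors' deposited table of gene sets, 14 had a normalised enrichment score below 0, from -1.62 to 0.85 over the 15. None had an adjusted p under 0.05 there (lowest 0.0616).

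Other genes of potassium handling were counted from 4 lists, to be read against the 41.6% of all tested genes that rose and the 40.2% that fell. Of 2 tested partner subunits outside the KCN names, AMIGO1 and ABCC8, both fell. Of 7 other channels that pass potassium, 4 were higher and 2 lower (85.7% called, near the 81.9% of all tested genes; median log2 change 0.45). HCN2, a pacemaker channel gene, fell 3.67-fold, from 1239 ± 175 to 334 ± 19.0 units, and HCN3 rose 2.17-fold. TMEM38A and TMEM38B, which encode the potassium-conducting TRIC channels of the endoplasmic reticulum, moved apart, the first 6.07-fold lower (244 ± 32.7 to 39.2 ± 1.599 units) and the second 3.45-fold higher (158 ± 11.5 to 547 ± 18.2 units). Of 12 pumps and transporters 3 rose and 7 fell (83.3% called, median -0.39). SLC12A5, a potassium-chloride cotransporter gene, rose 3.31-fold, and SLC12A2 and ATP1B1 fell 4.21 and 2.07-fold. Of 17 regulators 3 rose and 10 fell (76.5% called, median -0.19), none by 2-fold.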

How the data were processed

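Gene-level RNA-seq values of 6 libraries were used, on GRCh38 per the submitters' processing notes. For aligner, counter and annotation the sources used here give no name. Signal values, as deposited, are whole numbers rescaled by the authors between libraries, since their totals are nearly equal. The same table gives the authors' log2 fold change and adjusted p-values, and a second deposited table gives a normalised enrichment score and p-values per gene set, per the file headers.

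Each value less 1 was divided by the product of a TMM (trimmed mean) factor and the relative total of its library. The log2 of units plus 1 was fitted with limma 3.58.1 in R 4.3.3, with a mean-variance trend and no replicate block. The script was tested on simulated data. Reads were estimated from the rounding steps of each library, and floors and intervals cover counting error only. No library repeated another (chi-square per gene between replicates 2.86 to 6.74). The labels name no batch.

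Coordinates and exon lengths are from GENCODE release 29, which matched all 75 symbols. Library values are given for each tested KCN gene past the threshold with at least 2-fold change and for the 10 most abundant. In the other lists, at most 4 genes with 2-fold changes are named. A few genes that this rule names enter the counts but are not reported here. Other named genes and the 8 promoter motifs were chosen after values were seen. The members and lists were chosen with earlier results of these data known. Alternatives were other scalings, filters and pseudocounts, a replicate block, limma-voom and leaving out each library.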

Additional observations from a re-analysis of the deposited data

How the results depend on the processing

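Of the 35 calls among potassium channel genes, 29 kept their direction and their side of the threshold under each of the 15 alternatives in which they were tested, and 0 turned over. The 6 that lost the call under at least 1 alternative were KCNF1, KCNIP2, KCNIP3, KCNMB3, KCNQ3 and KCNQ5. The 11 higher genes became 6 (and the 24 lower genes 16) with a minimum value of 51, which leaves 24 potassium channel genes tested. With 1 library left out at a time the counts ranged from 9 to 12 higher and from 21 to 23 lower, and without a filter they were 13 and 30 of 75. KCNK5, which did not pass, changed sign with scaling by library size alone (log2 change 0.050) and without salinomycin replicate 2 (0.0052), and ranged from -0.31 to 0.0052 without 1 library. With a replicate block 10 rose and 22 fell. With that block 0 calls turned over, and KCNF1, KCNIP2 and KCNIP3 lost theirs. Deviations from the group means of same-numbered libraries correlated at -0.17, -0.01 and -0.03 over genes. For unlike-numbered libraries they ran from -0.15 to 0.19. With 3 libraries per group these values cannot decide whether the numbers pair the libraries. The planned count model was not run, because whole reads could not be recovered in libraries scaled by less than 1, and limma-voom on estimated reads was added after seeing the data (12 higher, 24 lower). Fits without 1 library assume that the pair left varies like the other group. Depth limits the 36 untested genes and the folds of KCNJ15, KCNE3, KCNH3, KCNN1 and KCNN2, which moved over 1.5 times with a pseudocount of 8.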
